A study of Mus musculus with 8 samples.

Results

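The expression of 10 genes that dampen or carry out ERK signalling was compared between 2 classes of interstitial cells of Cajal and the muscle coat of the mouse small intestine. The genes were the ETS transcription factors Etv4 and Etv5, the MAPK phosphatases Dusp4 and Dusp6, the Sprouty genes Spry1, Spry2 and Spry4, the Spred genes Spred1 and Spred2, and Phlda1. They were chosen by name as MAPK feedback genes downstream of the receptor KIT, but with earlier results of these data known. The same holds for the other lists below. Counts and medians set beside those of all genes are therefore descriptive and not a neutral comparison. All 10 were among the 18193 genes that had a probe set naming 1 gene only. Together they had 28 such probe sets. Each gene's main value is that of its brightest probe set on average over all 8 arrays.

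RNA came from 3 samples of ICC-DMP cells, 3 of ICC-MY cells and 2 of tunica muscularis tissue, and every sample was labelled as small intestine of 6- to 9-day-old BALB/c mice. ICC is the usual short form for interstitial cells of Cajal, DMP for the deep muscular plexus and MY for the myenteric plexus, and tunica muscularis is the muscle coat of the gut wall. The labels used here state neither the isolation method, nor the sex of the mice, nor the number pooled per sample. About 50 ng of RNA per sample went through a pair of amplification rounds before labelling. The titles number biological replicates but do not tie each to its own mouse, so the p-values measure only sample-to-sample spread, which may be technical.

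KIT is the receptor tyrosine kinase that interstitial cells of Cajal need to develop and persist. When such a receptor binds its ligand, RAS proteins activate the RAF, MEK and ERK kinases in turn, and ERK switches on genes that include its own brakes. Dual-specificity phosphatases remove the activating phosphates from MAP kinases, Sprouty and Spred proteins act upstream between receptor and RAF, and Etv1, Etv4 and Etv5 form the PEA3 group of ETS factors, whose levels follow ERK activity in several tissues. ETV1 in particular is known as a factor that KIT-dependent interstitial cells of Cajal rely on. Etv1 had no probe set that named it alone and was not analysed here.

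Promoter windows from RefSeq (build GRCm38.p6) each ran from 250 bases before to 50 bases after an annotated start. They were searched for 6 of the 10 genes, in 7 windows, and the other genes were not searched. Those of Etv5 and Dusp6, which were higher in both cell classes than in tissue, and of Spry1 and Spry2, which were higher in ICC-MY, are shown so that the sequence near the start can be read beside the expression values. Capitals mark the motif matches found, on either strand.
Etv5, upstream start, chr16:22439521-22439820, minus strand: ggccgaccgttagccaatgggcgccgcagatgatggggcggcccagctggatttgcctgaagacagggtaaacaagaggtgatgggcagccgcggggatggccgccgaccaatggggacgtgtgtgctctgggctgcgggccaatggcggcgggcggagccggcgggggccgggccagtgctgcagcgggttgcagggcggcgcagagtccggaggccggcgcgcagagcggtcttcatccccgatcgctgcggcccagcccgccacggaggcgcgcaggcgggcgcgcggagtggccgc
Etv5, downstream start, chr16:22438319-22438618, minus strand: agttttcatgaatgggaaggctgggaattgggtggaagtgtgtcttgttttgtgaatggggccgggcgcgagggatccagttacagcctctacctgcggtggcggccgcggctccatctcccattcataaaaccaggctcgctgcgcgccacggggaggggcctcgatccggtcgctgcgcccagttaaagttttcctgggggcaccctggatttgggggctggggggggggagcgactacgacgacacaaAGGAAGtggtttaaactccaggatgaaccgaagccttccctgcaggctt
Dusp6, chr10:99262981-99263280, plus strand: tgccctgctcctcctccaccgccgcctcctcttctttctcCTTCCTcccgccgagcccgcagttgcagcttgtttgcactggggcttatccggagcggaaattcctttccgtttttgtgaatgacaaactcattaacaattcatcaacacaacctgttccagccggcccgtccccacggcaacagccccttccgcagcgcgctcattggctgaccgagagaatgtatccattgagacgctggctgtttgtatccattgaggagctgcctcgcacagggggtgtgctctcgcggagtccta
Spry1, chr3:37639697-37639996, plus strand: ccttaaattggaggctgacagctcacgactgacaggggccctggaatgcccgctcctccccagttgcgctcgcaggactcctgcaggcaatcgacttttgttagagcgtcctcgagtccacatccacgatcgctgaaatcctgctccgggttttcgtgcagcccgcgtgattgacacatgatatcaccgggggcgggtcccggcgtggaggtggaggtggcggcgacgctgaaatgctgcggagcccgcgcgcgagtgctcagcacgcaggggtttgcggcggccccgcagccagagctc
Spry2, chr14:105896770-105897069, minus strand: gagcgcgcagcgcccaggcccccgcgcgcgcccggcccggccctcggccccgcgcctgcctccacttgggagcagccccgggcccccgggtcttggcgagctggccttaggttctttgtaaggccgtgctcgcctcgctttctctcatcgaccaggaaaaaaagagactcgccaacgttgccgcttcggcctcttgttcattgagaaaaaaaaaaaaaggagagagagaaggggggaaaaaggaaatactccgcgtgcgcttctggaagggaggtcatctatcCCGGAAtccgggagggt

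The motifs searched, on both strands, were the ETS sequence CCGGAAGT and its shorter form CCGGAA, the PEA3 sequence AGGAAG, the AP-1 sequence TGANTCA, the cyclic AMP response element TGACGTCA and its shorter form TGACGT, and the serum response factor box known as CArG. Each shorter form lies within its longer one. Over 32851 mouse windows of 300 bases, matches were present in 3.89% for CCGGAAGT, 14.9% for CCGGAA, 35.4% for AGGAAG and 7.81% for TGANTCA. The shares were 1.79% for TGACGTCA, 7.51% for TGACGT and 1.63% for CArG. The downstream window of Etv5 held AGGAAG at position 2, counted from 1 at the annotated start, and the Dusp6 window held it on the opposite strand from position -210. Spry2 held CCGGAA from position 34. The upstream window of Etv5 and the windows of Spry1 and Spred1 held none of these letters. The Spred2 window (chr11:19924192-19924491) held AGGAAG from position -93 and, on the opposite strand, from position -32, and TGACGT on the opposite strand from position -52. A match is a stretch of letters in this window and says nothing about binding.

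The deposited values are on a log2 scale, so a difference of 1 is a doubling. The median of an array was 4.18 to 4.31. A pair of arrays, ICC-MY replicate 1 and replicate 1 of tissue, had a narrower spread of values over all probe sets than the other arrays (SD 1.98 and 2.06, against 2.22 to 2.31). A fit without them was therefore also run, and its results are noted where a call or a sign changed. Kit averaged 11.09 ± 0.25 in ICC-DMP (SD, n = 3), 11.74 ± 0.83 in ICC-MY (n = 3) and 7.82 ± 0.87 in tissue (n = 2), so this receptor was high on the arrays of both cell classes. Of the full list of 10 ICC markers, Kit included, 4 were called higher than tissue in ICC-DMP (Kit, Ano1, Thbs4 and Elovl6) and 8 in ICC-MY, with 0 lower in either by limma (0 also at an unadjusted p under 0.05). In ICC-DMP, Prkcq (-0.06), Edn3 (0.02), Slc12a2 (-0.27) and Cacna1h (-0.79) were not above tissue by the test. Of 20 immediate early and dissociation response genes, limma called 19 higher than tissue in ICC-DMP and 16 in ICC-MY. The mean level of that list lay between 10.68 and 10.94 on the ICC-DMP arrays, between 9.00 and 9.91 on the ICC-MY arrays and between 6.73 and 6.83 on the tissue arrays, and its part in the differences described below was not tested. All 9 neuron and all 5 mesothelium markers measured were lower in both cell classes than in tissue, with list means of 3.61 to 3.70 (neuron, ICC-DMP), 3.70 to 3.73 (neuron, ICC-MY) and 8.65 to 9.16 (neuron, tissue). Other cell type lists were less uniform. Of 7 fibroblast and PDGFRA cell markers, 2 were called lower in ICC-DMP and 5 in ICC-MY. Their list means were 9.74 to 10.10 (ICC-DMP), 9.13 to 9.96 (ICC-MY) and 10.44 to 11.46 (tissue). Of 10 smooth muscle markers, 6 were called lower in ICC-DMP and 9 in ICC-MY. Of 8 endothelium markers, 3 were lower and 1 was higher in ICC-DMP, and 1 was lower in ICC-MY. In whole tissue, fewer cells of a type and less RNA per cell cannot be told apart. The 2 tissue arrays differed on the list of 6 epithelium markers, with list means of 5.42 and 7.35. On the cell arrays that mean was 3.50 to 3.60 (ICC-DMP) and 3.43 to 3.80 (ICC-MY). The part of this difference in the results below was not tested.

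In ICC-DMP, 6 of the 10 genes were higher than in tissue: Etv5, Dusp4, Dusp6, Spry4, Spred1 and Phlda1. In ICC-MY, 8 were higher: Etv5, Dusp6, Phlda1 and all 3 Sprouty and both Spred genes. That count was 4 (Etv5, Spry1, Spry4 and Phlda1) without tissue replicate 1, and 5 with only these groups in the fit. Between the classes, Etv5 and Dusp4 were higher in ICC-DMP, while Spry1, Spry2 and Phlda1 were lower in ICC-DMP than in ICC-MY. Calls are those of limma at an adjusted p under 0.05, adjusted by Benjamini-Hochberg over 18193 genes. Of all genes, 3.72% were called higher and 7.32% lower in ICC-DMP than in tissue (11.0% either way), and 4.05% higher and 9.78% lower in ICC-MY than in tissue (13.8%). Between the classes 5.36% were higher in ICC-DMP and 3.30% lower (8.67%). By limma 0 of the 10 were lower than tissue in either class, with 0 at an unadjusted p under 0.05. The median difference of the 10 genes was 1.36 for ICC-DMP and 1.50 for ICC-MY against tissue, beside medians of -0.04 and -0.02 over all genes, and between the classes it was -0.14 beside -0.02. Both comparisons with tissue share the same 2 tissue arrays, so they are not independent of each other. The mean of both classes was higher than tissue for 6 of the 10, beside 3.69% of all genes (9.32% were lower, 13.0% either way), and 6 had all cell arrays above tissue, beside 6.23%. An alternative below means 1 of 18 changes to the whole fit, such as leaving out an array or another normalization.

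**Figure D1:**
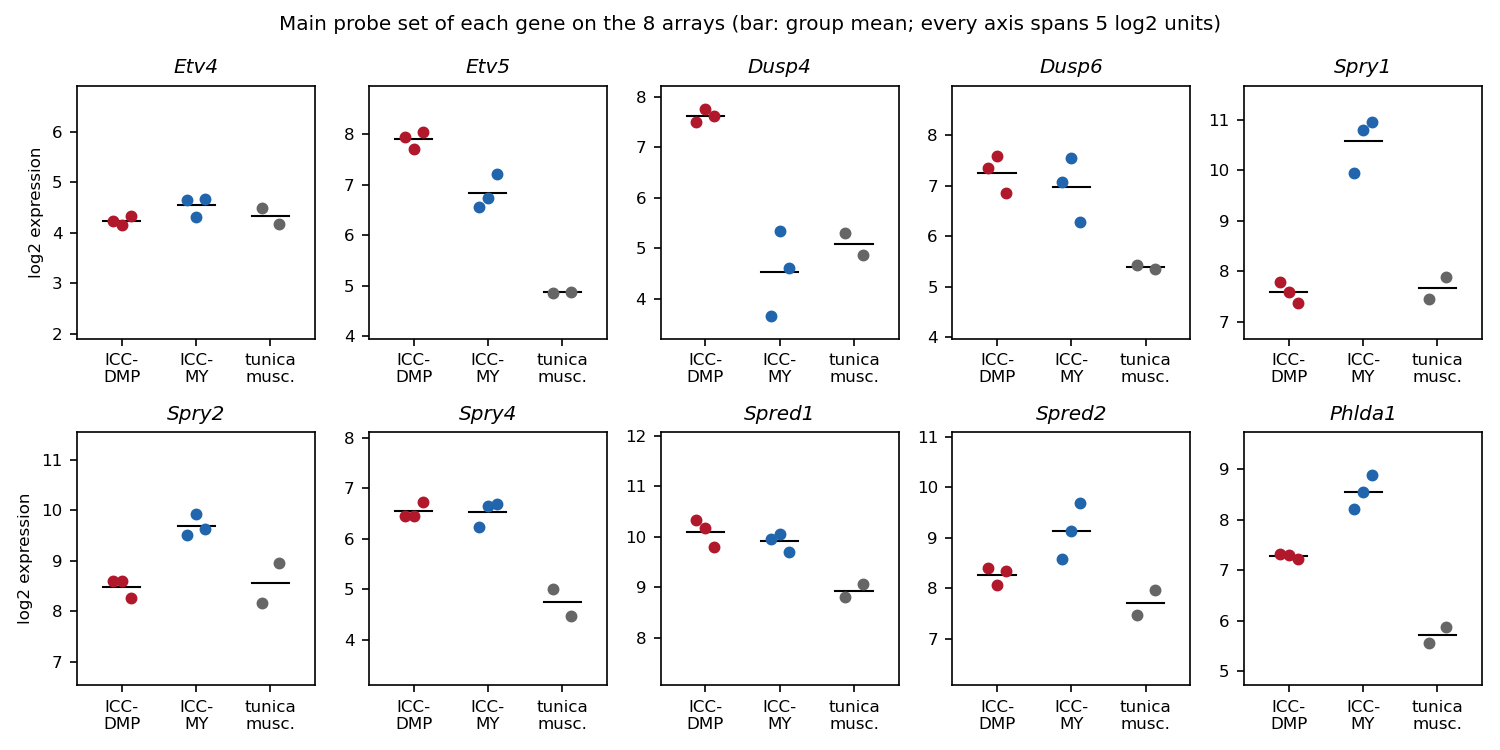
Each panel shows 1 gene's main probe set in log2 expression (vertical axis, spanning 5 units in every panel), with ICC-DMP at left, ICC-MY in the middle and tunica muscularis at right. Points are arrays and bars are group means. Dusp4 stands high on the 3 ICC-DMP arrays (7.50 to 7.76) and Spry1 on the 3 ICC-MY arrays (9.94 to 10.96).

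Of the ETS factors, Etv5 separated all 3 groups. It read 7.94, 7.71 and 8.05 on the ICC-DMP arrays, 6.57, 6.73 and 7.22 on the ICC-MY arrays, and 4.86 and 4.88 on the tissue arrays. The 3 groups did not overlap, with ICC-DMP highest and tissue lowest. Arrays above those of tissue without overlap were seen for 7 of the 10 genes and 15.5% of all genes in ICC-DMP, and for 8 of the 10 and 13.4% in ICC-MY. Arrays wholly below tissue were seen for 0 of the 10 in either class, beside 23.1% of all genes in ICC-DMP, 20.7% in ICC-MY and 13.7% for both classes together. By limma, Etv5 was higher than in tissue by 3.03 in ICC-DMP (SE 0.21, adjusted p = 5.44e-05, 8.19-fold) and by 1.97 in ICC-MY (SE 0.21, adjusted p = 0.000494, 3.93-fold). It was higher in ICC-DMP than in ICC-MY by 1.06 (SE 0.19, adjusted p = 0.0101, 2.09-fold). That call was lost without ICC-DMP replicate 1 (1.04, adjusted p = 0.0532) and with the gene's 3 probe sets averaged (0.51, adjusted p = 0.0522). Averaging also lowered the differences from tissue to 1.30 in ICC-DMP and 0.79 in ICC-MY, both still called (adjusted p = 0.000819 and 0.00882). The other 2 Etv5 probe sets were dim (mean levels 3.78 and 3.51, below every array's median) and neither was called in any comparison. The calls of Etv5 against tissue held under all 18 alternatives in ICC-DMP and all 18 in ICC-MY.

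Etv4, the other PEA3 factor measured, showed no such pattern. It read 4.24, 4.15 and 4.33 in ICC-DMP, 4.64, 4.32 and 4.66 in ICC-MY, and 4.50 and 4.18 in tissue. All 3 groups overlapped and all arrays lay close to the median of all probe sets, so this probe set gives little room to read a decrease. The difference from tissue was -0.10 in ICC-DMP (SE 0.17, 95% interval -0.50 to 0.30) and 0.20 in ICC-MY (SE 0.17, 95% interval -0.20 to 0.60), and neither passed (adjusted p = 0.86 and 0.592). Its second probe set had a mean level of 3.29 and was not called either.

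Of the phosphatases, Dusp4, whose product acts on MAP kinases in the nucleus, was high in ICC-DMP alone among the groups measured. It read 7.50, 7.76 and 7.62 in ICC-DMP, 3.66, 5.33 and 4.61 in ICC-MY, and 5.31 and 4.88 in tissue. Every ICC-DMP array lay above every other array, while ICC-MY and tissue overlapped. Dusp4 was higher in ICC-DMP than in tissue by 2.53 (SE 0.42, limma adjusted p = 0.00539, 5.79-fold) and than in ICC-MY by 3.09 (SE 0.37, adjusted p = 0.00117). No fold is given for the second, because ICC-MY averaged 4.54, near the array medians. The tissue means of Etv5 (4.87) and Spry4 (4.74) were not far above those medians either, so the folds over tissue of these genes need similar care. The difference between ICC-MY and tissue was -0.56 (SE 0.42, adjusted p = 0.509), and it was 0.09 with the narrow-range pair left out (adjusted p = 0.887). Both ICC-DMP calls held under all 18 alternatives. The mean of both classes over tissue was 0.99 (adjusted p = 0.142) and passed without ICC-MY replicate 1 (1.21, 0.00932) and without the 2 narrow-range arrays (1.42, 0.00999). The gene had 1 probe set, so no second measurement of it was at hand.

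Dusp6, which encodes the cytoplasmic phosphatase that is most selective for ERK, was higher in both classes. It read 7.35, 7.59 and 6.85 in ICC-DMP, 7.07, 7.55 and 6.28 in ICC-MY, and 5.42 and 5.36 in tissue. All 6 cell arrays lay above both tissue arrays, and the classes overlapped, replicate 3 being the lowest of each. The increase was 1.87 in ICC-DMP (SE 0.36, limma adjusted p = 0.0121, 3.66-fold) and 1.58 in ICC-MY (SE 0.36, adjusted p = 0.0216, 2.98-fold). The difference between the classes was 0.30 (SE 0.32, 95% interval -0.44 to 1.04, adjusted p = 0.75). Both calls against tissue were lost under some alternatives. The ICC-DMP call was lost without ICC-DMP replicate 1 (1.83, adjusted p = 0.0526) or 2 (1.71, 0.0509) and without tissue replicate 1 (1.90, 0.0525) or 2 (1.84, 0.0578). The ICC-MY call was lost with tissue replicate 1 (1.61, adjusted p = 0.0769), tissue replicate 2 (1.54, 0.0977) or both narrow-range arrays (1.56, 0.0767) left out, with array weights (1.51, 0.0825) and with only these groups in the fit (0.0665). The mean of both classes over tissue (1.72, adjusted p = 0.00918) was lost as a call without tissue replicate 1 (0.0509) or 2 (0.061).

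The Sprouty genes did not move together. Spry1 read 7.80, 7.59 and 7.37 in ICC-DMP, 9.94, 10.80 and 10.96 in ICC-MY, and 7.44 and 7.88 in tissue. ICC-MY stood apart from both other groups, which overlapped. Spry1 was higher in ICC-MY than in tissue by 2.91 (SE 0.31, limma adjusted p = 0.000446, 7.51-fold). In ICC-DMP it was lower than in ICC-MY by a log2 difference of -2.98 (SE 0.28, adjusted p = 0.000304), and its difference from tissue was -0.07 (SE 0.31, 95% interval -0.79 to 0.64). Both calls held under all 18 alternatives. The higher mean of both classes over tissue (1.42, adjusted p = 0.0115) came with ICC-DMP arrays that overlapped tissue and was lost without tissue replicate 1 (1.20, adjusted p = 0.0943).

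Spry2 had the same order on a smaller scale. It read 8.60, 8.59 and 8.27 in ICC-DMP, 9.50, 9.92 and 9.63 in ICC-MY, and 8.16 and 8.96 in tissue. The ICC-MY arrays lay above all others, and the ICC-DMP arrays lay between both tissue arrays. Spry2 was higher in ICC-MY than in tissue by 1.13 (SE 0.26, limma adjusted p = 0.0209, 2.18-fold), and the ICC-DMP minus ICC-MY difference was -1.20 (SE 0.23, adjusted p = 0.0132). The difference from tissue was lost as a call without tissue replicate 1 (0.73, adjusted p = 0.0999), without ICC-MY replicate 2 (1.01, 0.0653) or 3 (1.15, 0.0519), and with only these groups in the fit (0.0814). The difference between the classes was lost without ICC-DMP replicate 3 (-1.09, adjusted p = 0.0604) and without ICC-MY replicate 2 (-1.08, 0.0526). With both probe sets averaged the values were 0.74 and -0.70, both called (adjusted p = 0.0082 and 0.00854). The second Spry2 probe set had a mean level of 3.94 and was not called. The mean of both classes over tissue (0.53, adjusted p = 0.208) passed without tissue replicate 2 (0.93, 0.0421).

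Spry4, in contrast, was higher in both classes to a similar measured extent. It read 6.46, 6.45 and 6.74 in ICC-DMP, 6.24, 6.65 and 6.70 in ICC-MY, and 5.02 and 4.47 in tissue. The cell arrays all lay above the tissue arrays and the classes overlapped. The increases were 1.80 in ICC-DMP (SE 0.22, limma adjusted p = 0.00118, 3.49-fold) and 1.78 in ICC-MY (SE 0.22, adjusted p = 0.00102, 3.44-fold), and both held under all 18 alternatives. The difference between the classes was 0.02 with a 95% interval of -0.44 to 0.48, and its sign turned in 6 alternatives. A second Spry4 probe set (mean level 5.92) was also higher in both classes, by 1.45 in ICC-DMP and 2.10 in ICC-MY (limma adjusted p over all probe sets = 0.00208 and 0.000353). The remaining 2 were not called, and with all 4 averaged the differences were 0.91 in ICC-DMP and 1.16 in ICC-MY.

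Spred1 and Spred2 encode membrane-bound relatives of Sprouty that hold back the activation of RAF. Spred1 read 10.33, 10.18 and 9.79 in ICC-DMP, 9.96, 10.05 and 9.70 in ICC-MY, and 8.80 and 9.06 in tissue. Tissue lay below all 6 cell arrays and the classes overlapped. It was higher than in tissue by 1.17 in ICC-DMP (SE 0.20, limma adjusted p = 0.00734, 2.25-fold) and by 0.98 in ICC-MY (SE 0.20, adjusted p = 0.0143, 1.97-fold), and the difference between the classes was 0.19 (SE 0.18, 95% interval -0.23 to 0.61). The ICC-DMP call was lost under quantile normalization (1.01, adjusted p = 0.0581) and with a variance trend and robust prior (0.0503). The ICC-MY call was lost without tissue replicate 1 (0.85, adjusted p = 0.0801), without both narrow-range arrays (0.82, 0.0759), with array weights (0.95, 0.0508) and with the variance trend (0.0985).

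Spred2 was the one of the pair whose main probe set leaned toward ICC-MY. It read 8.40, 8.06 and 8.34 in ICC-DMP, 8.58, 9.13 and 9.70 in ICC-MY, and 7.48 and 7.96 in tissue. The 3 groups did not overlap, with ICC-MY highest and tissue lowest. The increase over tissue passed in ICC-MY (1.42, SE 0.31, limma adjusted p = 0.0186, 2.67-fold), and in ICC-DMP the difference was 0.55 (SE 0.31, adjusted p = 0.398). The ICC-MY call was lost without ICC-MY replicate 2 (1.42, adjusted p = 0.0509), without tissue replicate 1 (1.18, 0.106) and with only these groups in the fit (0.0793). The ICC-DMP minus ICC-MY difference of -0.87 (SE 0.28) had an adjusted p of 0.116. It passed with the replicate number as a block (adjusted p = 0.0335), under quantile normalization (-1.02, 0.00663), with array weights (-1.07, 0.00806), without ICC-MY replicate 1 (-1.15, 0.0185) and without the 2 narrow-range arrays (-1.15, 0.00801). The mean of both classes over tissue was 0.98 (adjusted p = 0.0564), and the replicate block brought it past the threshold (0.82, adjusted p = 0.0458), as did quantile normalization, averaged probe sets, a test among genes with a mean level of at least 5, and leaving out ICC-MY replicate 1 or the narrow-range pair (adjusted p = 0.00441 to 0.0473). With its 5 probe sets averaged, Spred2 was called in ICC-DMP (0.64, adjusted p = 0.0208) and at 0.91 in ICC-MY (0.00319). The averaged difference between the classes was -0.28 and not called. Its other probe sets gave -0.86, -0.08, 0.19 and 0.22 between the classes, none of them called, so the lean was not shared by all.

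Phlda1, a pleckstrin homology-like domain gene whose transcript is counted among the outputs of ERK signalling, again separated all 3 groups. It read 7.32, 7.30 and 7.23 in ICC-DMP, 8.22, 8.54 and 8.89 in ICC-MY, and 5.57 and 5.89 in tissue. No groups overlapped, and ICC-MY was highest. Phlda1 was higher than in tissue by 1.56 in ICC-DMP (SE 0.21, limma adjusted p = 0.00197, 2.94-fold) and by 2.83 in ICC-MY (SE 0.21, adjusted p = 6.49e-05, 7.10-fold). The ICC-DMP minus ICC-MY difference was -1.27 (SE 0.19, adjusted p = 0.00369). The calls in all 3 of these comparisons held under all 18 alternatives.

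**Figure D2:**
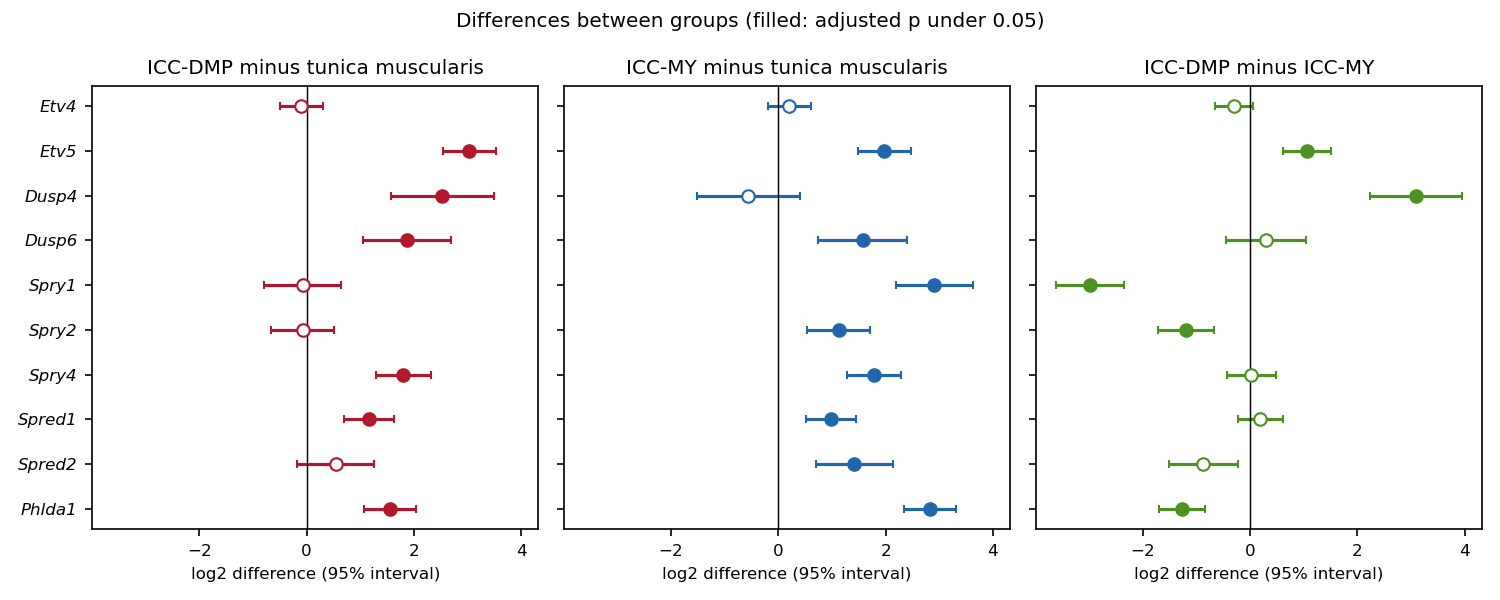
Horizontal axes give the log2 difference between groups from the limma fit with its 95% interval, for each of the 10 genes (rows) in 3 comparisons. Filled points passed at an adjusted p under 0.05: 6 for ICC-DMP against tunica muscularis, 8 for ICC-MY against tunica muscularis and 5 for ICC-DMP against ICC-MY.

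The genes thus fell into groups by their measured differences. Etv5 was higher in both classes and higher in ICC-DMP of the 2, Dusp4 was higher in ICC-DMP, Phlda1 was higher in both and higher in ICC-MY, and Spry1 and Spry2 were higher in ICC-MY. For Dusp6, Spry4 and Spred1 both classes were higher than tissue and a difference between the classes did not pass. The main probe set of Spred2 was higher than tissue in ICC-MY, and its difference between the classes did not pass. Etv4 was called in no comparison. The ICC-DMP minus ICC-MY comparison is also the test of whether the classes differed in their distance from tissue, since the tissue arrays cancel. Of the 10 genes, 2 had ICC-DMP arrays wholly above and 4 wholly below the ICC-MY arrays, beside 13.9% and 11.7% of all genes. In the same comparison ICC-DMP was higher for 13 and lower for 0 of the 20 immediate early and dissociation response genes, and 8 of 10 smooth muscle markers were higher (list mean 9.32 to 9.55 on the ICC-DMP arrays, 6.78 to 7.45 on the ICC-MY arrays and 10.01 to 10.89 on the tissue arrays). Of 8 endothelium markers 1 was higher and 3 were lower in ICC-DMP than in ICC-MY, with list means of 4.34 to 4.60 on the ICC-DMP arrays and 4.55 to 5.49 on the ICC-MY arrays. Of the 10 ICC markers 1 was higher and 5 were lower in ICC-DMP than in ICC-MY (median difference -1.51), with list means of 9.46 to 9.69 on the ICC-DMP arrays, 10.29 to 11.59 on the ICC-MY arrays and 8.10 to 8.91 on the tissue arrays. The list of ICC markers was thus split between the classes. Prkcq (-4.52) and Edn3 (-3.62) were among the 5 lower, and Thbs4 was the 1 higher (2.71). Kit (-0.65) and Ano1 (0.06) were not called. The part of these markers in the differences between the classes was not tested.

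Of the 28 probe sets, the 18 that were not the main one of their gene had the sign of the main one in 14 cases for ICC-DMP against tissue and in 17 for ICC-MY against tissue, but in only 10 between the classes. Against tissue 4 of the 18 were called higher and 0 lower by limma in ICC-DMP, beside 7.16% higher and 5.40% lower of all 45037 probe sets. In ICC-MY they were again 4 and 0, beside 5.95% and 6.68%. Between the classes 0 of the 18 passed, beside 4.88% higher and 2.52% lower, so the differences between the classes rest on the main probe sets. Most of the 18 belong to Spry4, Spred1 and Spred2, whose main difference between the classes was not called. Of the genes called there, Etv5 and Spry2 alone had other probe sets. Those were dim (mean levels 3.78 and 3.51 for Etv5, 3.94 for Spry2) and gave 0.51, -0.03 and -0.21, so they could hardly repeat the main ones. Among the 7 other Spred1 probe sets, 2 were higher in ICC-DMP and 2 in ICC-MY, the brightest called one by 1.37 in ICC-DMP (limma adjusted p = 0.00941) and 1.21 in ICC-MY (0.0177). The 1 probe set of Spred1 with a negative difference (-0.44 in ICC-DMP and -0.24 in ICC-MY) did not pass. A dim probe set of Spred2 (mean level 4.56) was higher by 1.51 in ICC-DMP (adjusted p = 0.00123) and 1.29 in ICC-MY (0.00309), against 0.55 in ICC-DMP and 1.42 in ICC-MY for the main one, so the probe sets of Spred2 disagreed on ICC-DMP. Dusp4, Dusp6, Spry1 and Phlda1 had 1 probe set each.

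**Figure D3:**
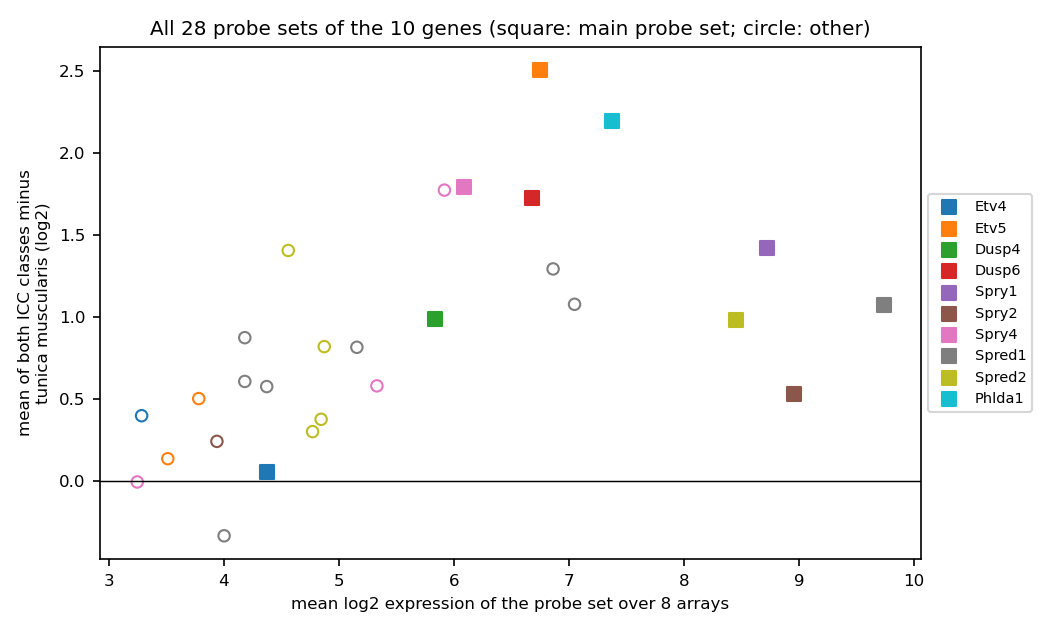
The vertical axis gives the log2 difference of the mean of both ICC classes minus tunica muscularis for each of the 28 probe sets, and the horizontal axis its mean log2 expression over the 8 arrays. Squares are main probe sets and circles the others, coloured by gene. The 2 dim Etv5 circles, at mean levels of 3.78 and 3.51, lie at 0.50 and 0.13, below the main Etv5 probe set at 2.50.

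Genes that relay the signal to ERK were called about as often as genes at large, of which 11.0% were called either way in ICC-DMP and 13.8% in ICC-MY against tissue. Of 25 listed genes of the kinase cascade, 16 were analysed here. In ICC-DMP 0 were higher and 1 lower than in tissue by limma, with 2 higher at an unadjusted p under 0.05. The lower one was Nras, a RAS protein gene (-1.10, SE 0.19, adjusted p = 0.00636). In ICC-MY, Araf, which encodes a RAF kinase, was higher (0.85, SE 0.18, adjusted p = 0.0145) and Nras lower (-0.77, SE 0.19, adjusted p = 0.0268). Gab1, which encodes a docking protein, was the 1 member higher in ICC-DMP than in ICC-MY (0.95, SE 0.18, adjusted p = 0.0141). The list's median difference from tissue was 0.14 in ICC-DMP and 0.01 in ICC-MY, beside 1.36 and 1.50 for the 10 feedback genes.

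Receptors upstream of the cascade differed in both directions. Of 15 receptor tyrosine kinase genes and ligands, 4 were higher and 2 lower than tissue in ICC-DMP, and 2 were higher and 5 lower in ICC-MY. Kit was higher by 3.27 in ICC-DMP (SE 0.50, limma adjusted p = 0.00366) and by 3.92 in ICC-MY (SE 0.50, adjusted p = 0.00112), and the difference between the classes did not pass (-0.65, SE 0.45, adjusted p = 0.553). Fgfr3 (3.08, SE 0.24) and Fgfr2 (2.30, SE 0.30), both fibroblast growth factor receptor genes, exceeded tissue in ICC-DMP, and they also exceeded ICC-MY (3.51, SE 0.21, and 1.92, SE 0.27). Pdgfrb was higher than in tissue in both classes, by 1.90 in ICC-DMP (SE 0.36) and by 3.37 in ICC-MY (SE 0.36). Met, the hepatocyte growth factor receptor gene, was lower in ICC-MY than in tissue (-4.33, SE 0.23) and higher in ICC-DMP than in ICC-MY (4.37, SE 0.21). Pdgfra was higher in ICC-DMP than in ICC-MY (2.10, SE 0.41). Against tissue, Pdgfra was lower in ICC-MY (-1.77, SE 0.46) and not called in ICC-DMP (0.33, SE 0.46). Ret, also a neuron marker, was lower than in tissue in ICC-DMP (-4.82, SE 0.21) and ICC-MY (-3.36, SE 0.21). Between the classes 5 of the 15 were higher and 3 lower in ICC-DMP.

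Other genes of the feedback families gave a mixed picture. Of 10 other DUSP genes, 3 exceeded tissue in ICC-DMP: Dusp1 (4.62, SE 0.41, limma adjusted p = 0.000184), Dusp5, which encodes a nuclear ERK phosphatase (1.63, SE 0.20, adjusted p = 0.00119), and Dusp10 (0.87, SE 0.18, adjusted p = 0.0172). In ICC-MY, Dusp1 (3.04, SE 0.41) and Dusp5 (0.99, SE 0.20) were higher and Dusp10, whose product acts on p38 and JNK, was lower (-0.80, SE 0.18). Dusp1 is also on the immediate early list. Between the classes, Dusp10 (1.67, SE 0.16), Dusp1 (1.58, SE 0.36) and Dusp8 (1.08, SE 0.22) were higher in ICC-DMP and Dusp14 was lower (-0.91, SE 0.20). Of the other Sprouty and Spred genes, Spry3 was lower in ICC-DMP (-0.69, SE 0.16, adjusted p = 0.0324) and ICC-MY (-0.65, SE 0.16, adjusted p = 0.0332), but its group means of 2.83, 2.87 and 3.52 all lay below the array medians. Spred3 was not called.

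Among 18 other ETS genes measured, Ets2 (1.45, SE 0.21, limma adjusted p = 0.00265) and Ets1 (1.31, SE 0.30, adjusted p = 0.0268) were above tissue in ICC-DMP. In ICC-MY 0 of the 18 passed in limma, with 2 higher and 1 lower at an unadjusted p under 0.05. The 2 brightest, Elk4 and Gabpa, gave differences of -0.27 (SE 0.35) and 0.08 (SE 0.39) there. Ets2 was higher in ICC-DMP than in ICC-MY (1.78, SE 0.19, adjusted p = 0.000552), and Fli1 was lower (-1.43, SE 0.23, adjusted p = 0.00503). Fli1 was dim, averaging 4.75 in ICC-MY and, below every array median, 3.32 in ICC-DMP and 3.89 in tissue. The median difference of the 18 from tissue was 0.01 in ICC-DMP and -0.01 in ICC-MY.

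Of 15 other genes known as outputs of ERK signalling, limma called 6 higher and 0 lower in ICC-DMP against tissue (0 also at an unadjusted p under 0.05), and 5 were higher and 1 lower in ICC-MY. Their median difference was 0.96 in ICC-DMP and 0.47 in ICC-MY. Egr1 (4.90, SE 0.35), Fos (3.42, SE 0.45), the ephrin receptor gene Epha4 (3.08, SE 0.31) and Maff (2.85, SE 0.25) had the largest increases in ICC-DMP. In ICC-MY they were Egr1 (3.96, SE 0.35), Il6 (3.89, SE 0.59), Epha4 (3.09, SE 0.31) and Fos (2.77, SE 0.45). Il6 averaged 3.26 in tissue, below every array median, and 4.22 in ICC-DMP (SD 1.04), near those medians. Egr1, Fos and Ier3 are also on the immediate early list. Between the classes, Ccnd1, the cyclin D1 gene, was higher in ICC-DMP (2.86, SE 0.31, adjusted p = 0.000656), as were Maff (1.91, SE 0.22) and Ier3 (1.51, SE 0.26), while Il6 was lower in ICC-DMP (-2.93, SE 0.52). In all, 5 of the 15 were higher and 1 was lower in ICC-DMP than in ICC-MY.

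**Figure D4:**
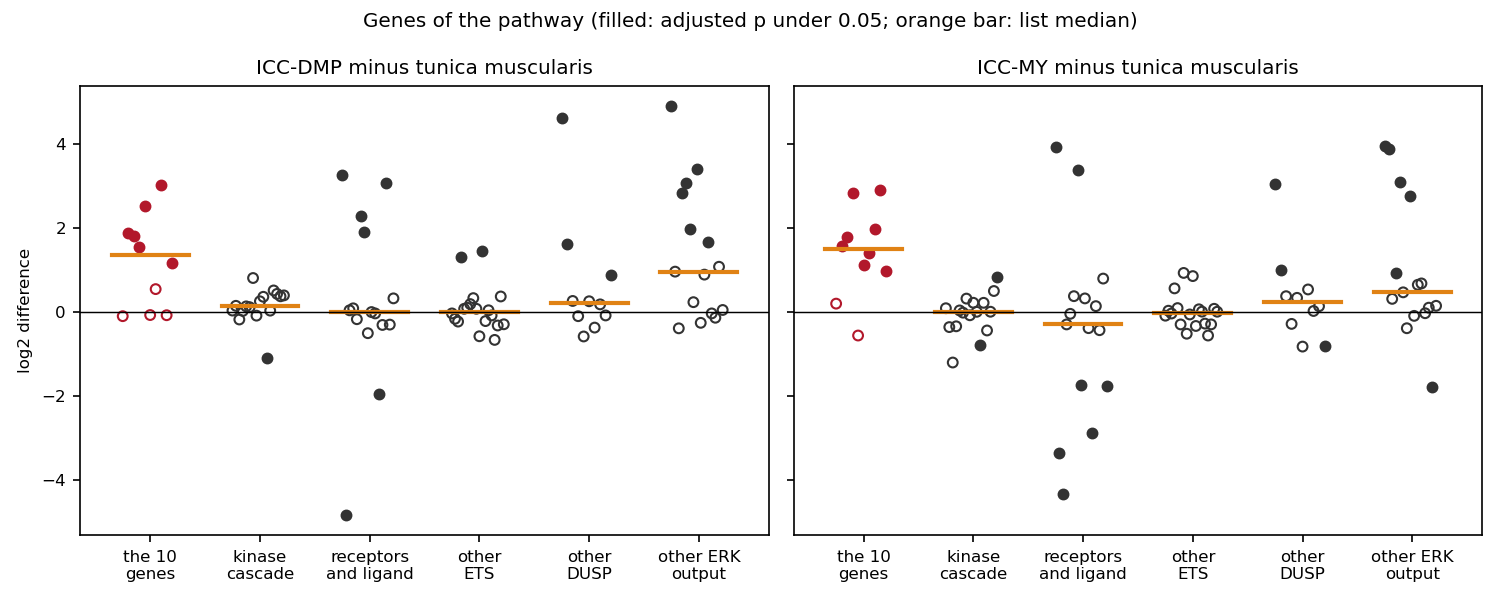
Vertical axes give the log2 difference from tunica muscularis for ICC-DMP (left) and ICC-MY (right), with 1 point per gene in 6 lists. Filled points passed at an adjusted p under 0.05 and orange bars are list medians. The bar of the 10 feedback genes lies at 1.36 and 1.50, and that of the kinase cascade at 0.14 and 0.01.

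Genes with the most similar course over the 8 arrays were ranked by the root-mean-square difference of log2 values centred on each gene's mean. For Etv5 they were Hmbox1 (0.27), Kcnh2 (0.30), which encodes a potassium channel, and Gdap10 (0.30), where Etv5 itself had an SD of 1.19 over the arrays. For Dusp4 they were Nog (0.33), Fhl2 (0.34) and Cidea (0.38), and for Dusp6 Bhlhe40 (0.23), Hes1 (0.30) and Tnfaip3 (0.31). The course of Spry1 was matched most closely by Lbhd2 (0.13), Aldh5a1 (0.17) and Pcolce2 (0.22), and that of Spry2 by Rbm46, Siae and Il15 (0.16 to 0.17). Spry4 had Cacna1d (0.15), a calcium channel subunit gene, Cdkn1a (0.21) and Ldlrad4 (0.22). Spred1 had Zfp458 (0.12), Slc16a4 (0.15) and Chd1 (0.16), and Spred2 had Afg1l (0.10), Clstn1 (0.14) and Kmt5c (0.17). For Phlda1 they were Cdc14b (0.20), the glycogen phosphorylase gene Pygm (0.22) and Elovl6 (0.27), the last also on the list of ICC markers. None of the 10 genes was among the 3 nearest of another.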

How the data were processed

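The table deposited by the authors holds log2 expression for 45101 probe sets on 8 arrays. The submitters' processing notes name RMA and limma without versions or steps, and do not say whether all arrays were normalized together. The 64 control probe sets were left out, 34945 of the rest named 1 gene, 932 named several and 9160 are unnamed here. The probe set with the highest mean represented each of 18193 genes, with no filter and no further normalization. Groups came from the titles. A linear model over all 8 arrays was fitted by limma 3.58.1 in R 4.3.3 with moderated variances (residual degrees of freedom 5, prior 3.17), with 2-sided tests and Benjamini-Hochberg adjustment, and the fit was tested on simulated data. Same-numbered samples of different groups deviated from their group means together (7 pairs, correlations 0.155 to 0.608), so the number was fitted as a block as an alternative. Pairs with unlike numbers gave -0.608 to 0.169. Deviations from a mean of 2 tissue arrays mirror each other, so these pairs are not independent.

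The 10 members and all lists were chosen with earlier results of these data known, and the motif AGGAAG after a first search. All 10 genes are described. From other lists, up to 4 called genes with the largest differences are named, and for each called member the 3 genes with the most similar course, leaving out provisional and clone-based symbols (RIKEN, Gm, LOC, EST). Where a list had 0 called genes, the 2 brightest are named. The number of arrays limits the precision.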

Additional observations from a re-analysis of the deposited data

Results flagged for a closer look

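For 5 of the 10 genes the difference from tunica muscularis differed between the classes by the ICC-DMP minus ICC-MY contrast of the limma fit. It was 3.09 for Dusp4, 1.06 for Etv5, -2.98 for Spry1, -1.27 for Phlda1 and -1.20 for Spry2 (limma adjusted p = 0.00117, 0.0101, 0.000304, 0.00369 and 0.0132). Of all genes, 8.67% differed between the classes. No group had enough arrays for a test of single outlying arrays.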

How the results depend on the processing

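Over the 10 genes, 4 comparisons and 18 alternatives, 706 values were computed, of which 643 kept their direction and their side of the threshold. Of 25 called values, 15 were called under every alternative that gave a value, and 0 changed sign.

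Counts over all genes moved more. The comparison of ICC-DMP with tissue called 2009 genes, and 3129 after quantile normalization, 5657 with every probe set tested and 1263 among genes with a mean level of at least 5. For ICC-MY against tissue 2516 became 3911 (quantile), 5691 (every probe set) and 1520 (only these groups in the fit, with 5 of the 10 genes called). For the mean of both classes 2366 became 3746, 6128 and 1542 (mean level of at least 5). Between the classes 1577 became 2557 (quantile, 1282 higher and 1275 lower, against 976 and 601), 3335 (every probe set), 2646 (array weights) and 2630 (narrow-range arrays left out). With the replicate number as a block the count between the classes was 2617, and the block changed no call of the 10 genes but those of Spred2. Leaving out 1 array gave 1264 to 2480 genes for ICC-DMP and 1965 to 2960 for ICC-MY against tissue, 991 to 1840 between the classes and 1747 to 2971 for the mean, with 5 to 6, 4 to 8, 4 to 6 and 4 to 8 of the 10 called. The 4 for ICC-MY against tissue came without tissue replicate 1.

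Signs turned in 19 uncalled values. Leaving out 1 array, the difference of ICC-DMP from tissue ranged over -0.257 to 0.0628 for Etv4, -0.294 to 0.145 for Spry1 and -0.470 to 0.330 for Spry2, that of the mean of both classes over -0.108 to 0.212 for Etv4, and that between the classes over -0.0470 to 0.588 for Dusp6 and -0.124 to 0.105 for Spry4. Etv4 also turned with the block (-0.00133, mean of both) and, for ICC-DMP, with probe sets averaged (0.141) and the narrow-range arrays left out (0.0628). Spry2 turned with probe sets averaged (0.0322). Between the classes Spry4 turned under quantile normalization (-0.0955), averaging (-0.250), weights (-0.118) and without the narrow-range arrays (-0.124), and Spred1 under quantile normalization (-0.0514). Dusp4 in ICC-MY turned without the narrow-range arrays (0.0947). The causes were not tested. With 2 tissue arrays and 3 per class, genes dim on every array, such as Etv4, give little room to see a decrease.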
